A study of Homo sapiens with 12 samples.

Results

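Expression of 10 negative and positive feedback genes of the Wnt/beta-catenin pathway was measured in HepG2 cells with altered levels of thiosulfate sulfurtransferase (TST), the mitochondrial enzyme that converts cyanide to thiocyanate. The genes, AXIN2, LGR5, NKD1, RNF43, ZNRF3, NOTUM, SP5, TCF7, LEF1 and TBX3, were chosen by name as established beta-catenin targets, and all 10 were found among the 57500 genes counted in each of 12 RNA sequencing libraries. The 12 libraries were 4 of wild-type HepG2 cells (WT), 4 of cells carrying an shRNA against TST (shTST) and 4 of cells overexpressing TST (overTST). Per the study's methods, both altered lines were made with lentivirus and selected with blasticidin, TST in overTST was a Myc-tagged, codon-optimized cDNA under a CMV promoter, and all cells were in medium with 400 µM glycine for 24 h. The methods used here do not describe WT as transduced or selected, so transduction and selection cannot be told apart from the change in TST. Nothing in the labels says how many clones or transductions each line stands for, so p-values measure the spread between these libraries. HepG2 is a human liver tumour line that carries an activated form of beta-catenin, which means that the pathway is on without added Wnt ligand. In the 12 libraries the summed level of 8 hepatocyte markers was 11329 to 18429 TPM (counts per exonic length, scaled to the same total in each library), that of 4 fibroblast markers was at most 0.549 TPM, and that of 3 endothelial markers was at most 1.25 TPM. Of the 4 leukocyte markers, PTPRC and CD3E had no reads in 11 of 12 libraries each, whereas LYZ stood at 1978 to 2780 TPM and made up nearly the whole of that list's sum.

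In the canonical Wnt pathway, a Wnt ligand binds a Frizzled receptor and an LRP co-receptor, a cytoplasmic destruction complex stops degrading beta-catenin, and beta-catenin enters the nucleus and binds DNA through factors of the TCF/LEF family. Many of the genes switched on in this way code for proteins that act on the pathway itself. Some act as brakes at the cell surface or in the cytoplasm, while others are DNA-binding factors that carry the signal on. In liver the pathway sets the identity of hepatocytes around the central vein, and its activation is common in liver tumours.

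The recognition sequence of TCF/LEF factors was looked for upstream of the genes, because these proteins are the means by which beta-catenin reaches its targets. The RefSeq promoter table for GRCh38.p14 held 6 windows for 4 of the 10 genes (SP5, LEF1, 2 of TCF7 and 2 of RNF43). The 250 bases before the start site were searched on both strands for 4 forms of the TCF/LEF motif, which begin with CTTTG and end with any pair of the letters A and T. Of 35116 windows in the table, 4199 (12%) held at least 1 match and 43 (0.122%) held 3 or more. Of the 6 windows of the 4 genes, 2 held a match. The window of SP5 held 3 matches, which began 148, 109 and 84 bases before the start site. One window of TCF7 held 1 match, which began 50 bases before the start site. The other window of TCF7, those of RNF43 and that of LEF1 held none. The windows of SP5 (chr2:170715087-170715336, + strand) and TCF7 (chr5:134123368-134123617, + strand) are shown because they hold the matches, which are in capitals, and that of RNF43 (chr17:58402722-58402971, - strand) is shown as a window without a match. A match is a description of the letters, and no binding was measured.
SP5: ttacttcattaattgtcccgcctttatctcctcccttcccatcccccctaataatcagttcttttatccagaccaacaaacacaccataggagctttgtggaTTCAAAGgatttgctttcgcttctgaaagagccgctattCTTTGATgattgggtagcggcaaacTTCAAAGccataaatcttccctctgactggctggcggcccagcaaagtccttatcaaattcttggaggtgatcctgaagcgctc
TCF7: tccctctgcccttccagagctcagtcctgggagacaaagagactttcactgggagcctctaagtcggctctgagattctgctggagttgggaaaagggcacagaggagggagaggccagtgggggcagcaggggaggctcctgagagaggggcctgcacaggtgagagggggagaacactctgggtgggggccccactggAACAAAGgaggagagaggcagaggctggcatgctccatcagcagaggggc
RNF43: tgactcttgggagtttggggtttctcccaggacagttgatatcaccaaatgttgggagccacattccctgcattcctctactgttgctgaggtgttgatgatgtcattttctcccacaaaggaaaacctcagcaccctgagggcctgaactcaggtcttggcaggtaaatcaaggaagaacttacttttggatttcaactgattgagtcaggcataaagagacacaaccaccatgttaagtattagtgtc

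The genes differed widely in level, so their order in WT was set per exonic length. SP5, a zinc-finger factor of the Sp family that restrains transcription of other Wnt targets, stood highest at 576 ± 63.5 TPM (SD, n = 4). NOTUM, a secreted esterase that removes the lipid from Wnt ligands and so inactivates them, followed at 356 ± 44.0 TPM (SD, n = 4). The cytoplasmic inhibitor NKD1 stood at 87.6 ± 10.9 TPM and the membrane ubiquitin ligase ZNRF3 at 51.3 ± 5.37 TPM (SD, n = 4 each). In this upper part of the order no neighbours overlapped over the 4 WT libraries. TBX3 (38.7 ± 4.88 TPM), AXIN2 (37.8 ± 6.13 TPM) and RNF43 (32.2 ± 4.00 TPM) came next, and the range of each overlapped its neighbour within this group of 3. Within single WT libraries, TBX3 was above AXIN2 in 3 of 4 and AXIN2 above RNF43 in 4 of 4. Levels used the whole exonic length, of which 25.2% for AXIN2 and 20.3% for RNF43 is shared with another gene. The effect of shared parts on this order was not tested. TCF7 (22.9 ± 2.12 TPM) and LGR5 (21.02 ± 2.42 TPM) overlapped in range and lay below RNF43, and TCF7 was above LGR5 in 4 of 4 WT libraries. LEF1 stood at 0.128 ± 0.0409 TPM (SD, n = 4) and was covered by only 6 to 13 reads per WT library. The other 9 genes had 1070 to 27808 reads per WT library.

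**Figure D1:**
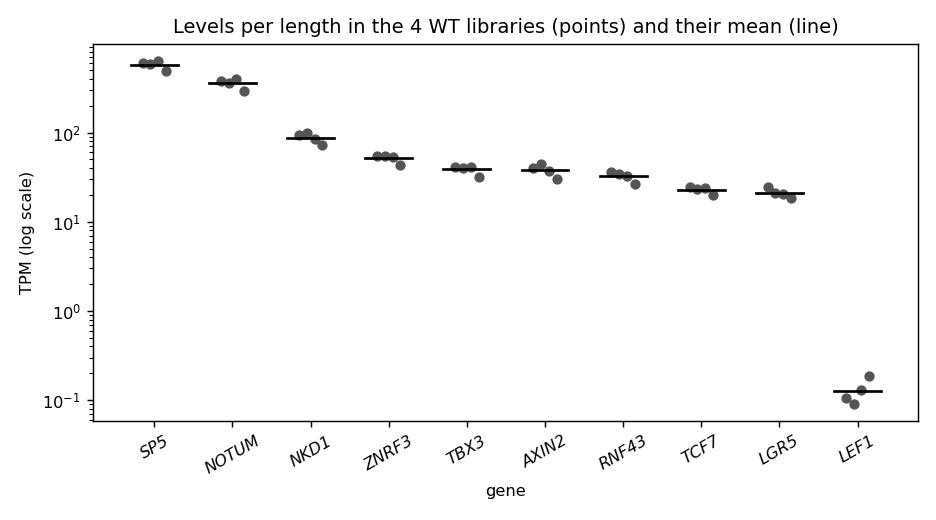
Levels per length of the 10 genes in the 4 WT libraries, on a log scale of TPM, in falling order of their mean (lines). SP5 and NOTUM stood highest, the next 7 genes lay between 18.4 and 97.8 TPM, and LEF1 lay at or below 0.184 TPM in every library.

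The spread between the WT libraries also differed by gene. The coefficient of variation of CPM (counts scaled to the TMM-normalized library size) was 1.23% for TCF7 and 13.1% for AXIN2, with 41.5% for LEF1 at its few reads. WT replicate 2, the deepest of the 12 libraries with 45120508 counts, held the highest WT value of AXIN2, NKD1, RNF43, ZNRF3, TCF7 and TBX3. Totals of the other libraries were 22911380 to 33865386 counts, and every overTST total was below every WT total (p = 0.0286 by an exact two-sided permutation test, which is the lowest p possible here). The mitochondrially encoded share of counts was 6.91% to 11.98% in WT, 6.84% to 8.65% in shTST and 10.8% to 11.7% in overTST. The part of depth and mitochondrial share in the results was not tested.

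TST itself was first compared as a check of the labels. In WT it stood at 47.2, 47.5, 52.8 and 48.5 CPM, and in shTST at 33.0, 33.6, 36.6 and 33.5 CPM. All shTST libraries were below all WT libraries, with a log2 fold change of -0.52 (SE 0.055, edgeR quasi-likelihood test with Benjamini-Hochberg adjustment over 14584 genes, adjusted p = 3.2e-06). In overTST it stood at 51.8, 56.0, 61.6 and 62.1 CPM, which overlapped WT (log2 fold change 0.24, SE 0.062, adjusted p = 0.00384, edgeR). This last call was lost after a correction for exonic length (0.097, adjusted p = 0.201, edgeR), and the codon-optimized transgene may not be counted on the TST gene.

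With TST silenced, TBX3 alone among the feedback genes passed the test. It was 1 of 10, against 16.1% of all genes (6.69% higher and 9.40% lower). TBX3, a T-box transcriptional repressor expressed in beta-catenin-driven liver tumours, was lower. It stood at 81.4, 86.1, 83.5 and 75.7 CPM in WT and at 66.1, 75.8, 67.3 and 76.8 CPM in shTST. The groups overlapped, as shTST replicates 2 and 4 lay just above the lowest WT library while replicates 1 and 3 lay well below it. The log2 fold change was -0.19 (SE 0.055, 95% interval -0.31 to -0.078, adjusted p = 0.0195, edgeR), and the call was lost without shTST replicate 1 (-0.15, adjusted p = 0.0989, edgeR) or without shTST replicate 3 (-0.16, adjusted p = 0.0734, edgeR).

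LGR5, a receptor for R-spondins that marks stem cells and pericentral hepatocytes, was the closest to the threshold among the genes that did not pass. It stood at 41.9, 39.6, 36.3 and 39.0 CPM in WT and at 43.7, 43.2, 40.7 and 46.0 CPM in shTST. Only shTST replicate 3 fell within the WT range. The log2 fold change of 0.15 (SE 0.056, 95% interval 0.031 to 0.26) had an adjusted p of 0.0768 (edgeR), and it passed without WT replicate 1 (0.18, adjusted p = 0.0447, edgeR) and after the length correction (0.15, adjusted p = 0.0487, edgeR).

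AXIN2, the scaffold of the destruction complex and the most used readout of pathway activity, stood at 68.5, 83.5, 65.5 and 63.1 CPM in WT and at 70.7, 74.3, 73.8 and 80.1 CPM in shTST. WT replicate 2 lay above every shTST library and the other 3 WT libraries lay below them all. The log2 fold change of 0.089 (SE 0.067, 95% interval -0.050 to 0.23) did not pass (adjusted p = 0.401, edgeR), but without WT replicate 2 it was 0.19 and passed (adjusted p = 0.0154, edgeR).

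TCF7, a DNA-binding partner of beta-catenin, did not overlap between shTST and WT, as 19.1% of all genes did not. It stood at 81.3, 83.1, 82.2 and 80.9 CPM in WT and at 83.3, 90.2, 86.8 and 84.5 CPM in shTST. The gap between the highest WT and the lowest shTST library was small beside the spread within shTST, and the log2 fold change of 0.075 (SE 0.043, 95% interval -0.015 to 0.16) did not pass (adjusted p = 0.256, edgeR).

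LEF1, the other TCF/LEF factor among the genes, was too sparse to compare. Its read counts were 6, 8, 7 and 13 in WT, 19, 13, 6 and 11 in shTST, and 9, 11, 3 and 7 in overTST. The log2 fold change with shTST was 0.72 with a 95% interval of -0.14 to 1.58 (adjusted p = 0.254, edgeR), so neither a marked rise nor no change could be told at this depth. LEF1 did not pass the filter on low counts in the comparison of overTST with WT. It was thus tested only in the comparisons that held the shTST libraries, where its highest count lay.

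The remaining 5 genes overlapped between shTST and WT, with log2 fold changes of -0.022 for RNF43, 0.0052 for SP5, 0.032 for NKD1, 0.046 for ZNRF3 and 0.069 for NOTUM. Their 95% intervals reached no further than -0.13 (RNF43) and 0.17 (NOTUM). The median log2 fold change of the 10 genes was 0.058, and that of all genes tested was 0.0040.

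With TST overexpressed, AXIN2, LGR5, RNF43 and TBX3 were lower both before and after a correction for exonic length, and NKD1 only before it. With overTST, 5 of the 9 genes tested passed the test, all 5 lower, against 33.9% of all 14421 genes tested (15.7% higher and 18.2% lower). Ranges of overTST and WT did not overlap for 6 of the 9, against 30.4% of all genes. The median log2 fold change of the 9 genes was -0.21, and that of all genes tested was 0.0019. In bulk libraries such as these, fewer cells expressing a gene and less RNA per cell cannot be told apart.

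**Figure D2:**
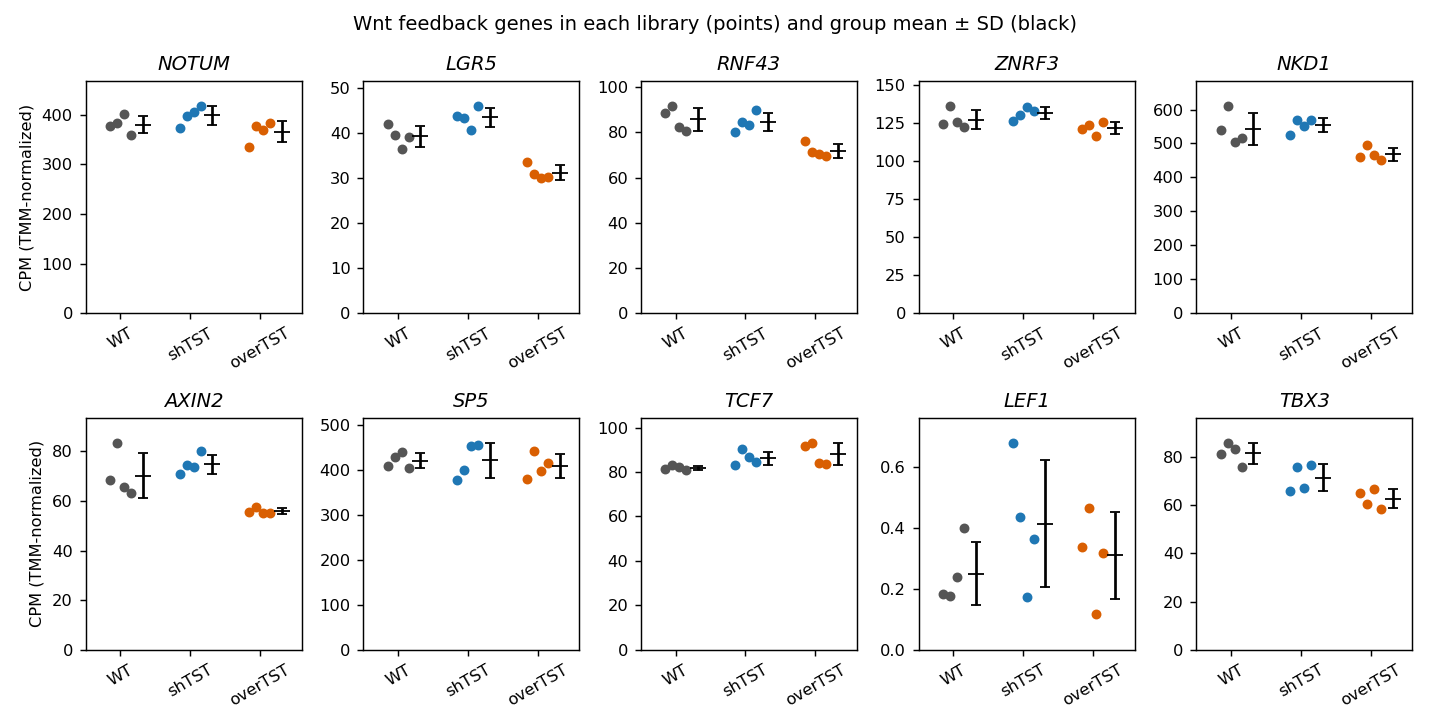
CPM on TMM-normalized library sizes for each gene, with each library as a point and the mean ± SD of each group (n = 4) in black, and with every axis starting at 0. For AXIN2, LGR5, NKD1, RNF43 and TBX3 all 4 overTST libraries lay below all 4 WT libraries, while NOTUM, ZNRF3 and SP5 overlapped.

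Among the membrane proteins, LGR5 stood at 33.6, 31.0, 29.9 and 30.1 CPM in overTST, and its WT values were 36.3 CPM or more. It fell by 0.33 on the log2 scale (SE 0.064, 95% interval -0.46 to -0.20, adjusted p = 0.00028, edgeR), to 0.795 of WT. RNF43, a ubiquitin ligase that removes Frizzled receptors from the cell surface and is itself held in check by R-spondin and LGR receptors, stood at 88.4, 91.7, 82.3 and 80.7 CPM in WT and at 76.2, 71.1, 70.3 and 69.4 CPM in overTST. Its groups did not overlap, and it fell by 0.26 on the log2 scale (SE 0.055, 95% interval -0.37 to -0.14, adjusted p = 0.00076, edgeR).

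ZNRF3, the close relative of RNF43 with the same activity on Frizzled, did not pass. It ranged from 122 to 136 CPM in WT and from 117 to 126 CPM in overTST. The log2 fold change was -0.064 (SE 0.050, 95% interval -0.17 to 0.038, adjusted p = 0.341, edgeR). Whether RNF43 and ZNRF3 differed in their response was not tested.

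In the cytoplasm, AXIN2 stood at 55.5, 57.7, 55.3 and 55.3 CPM in overTST, where the 4 libraries lay close together and below the lowest WT library (63.1 CPM). It fell by 0.33 on the log2 scale (SE 0.068, 95% interval -0.47 to -0.19, adjusted p = 0.0006, edgeR), to 0.796 of WT. Without the high WT replicate 2 it fell by 0.23 (adjusted p = 0.00216, edgeR).

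NKD1, which binds Dishevelled and dampens the signal, had the most reads of the 10 genes and the longest exonic sequence (17425 bases). It stood at 538, 611, 504 and 516 CPM in WT and at 461, 494, 466 and 451 CPM in overTST. The groups were separated by a narrow gap, and NKD1 fell by 0.21 on the log2 scale (SE 0.056, 95% interval -0.33 to -0.096, adjusted p = 0.00501, edgeR). This call was lost after the length correction, under which the log2 fold change was -0.0013 (adjusted p = 0.988, edgeR).

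NOTUM, the secreted brake, ranged from 359 to 401 CPM in WT and from 335 to 383 CPM in overTST (log2 fold change -0.055, SE 0.052, 95% interval -0.16 to 0.051, adjusted p = 0.437, edgeR). It was thus neither called nor separated between the groups.

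Among the nuclear factors, TBX3 stood at 65.1, 60.4, 66.7 and 58.3 CPM in overTST, all below the lowest WT library (75.7 CPM). It had the largest fitted change of the 9 genes and fell by 0.38 on the log2 scale (SE 0.057, 95% interval -0.50 to -0.27, adjusted p = 1.7e-05, edgeR), to 0.768 of WT. SP5 ranged from 405 to 440.1 CPM in WT and from 380.4 to 443 CPM in overTST and did not pass (log2 fold change -0.041, SE 0.052, 95% interval -0.15 to 0.066, adjusted p = 0.581, edgeR). TCF7 stood at 91.6, 93.2, 84.2 and 83.8 CPM in overTST, above every WT library, with 2 of the 4 close to the WT range. Its log2 fold change of 0.11 (SE 0.051, 95% interval 0.0025 to 0.21) did not pass (adjusted p = 0.107, edgeR).

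**Figure D3:**
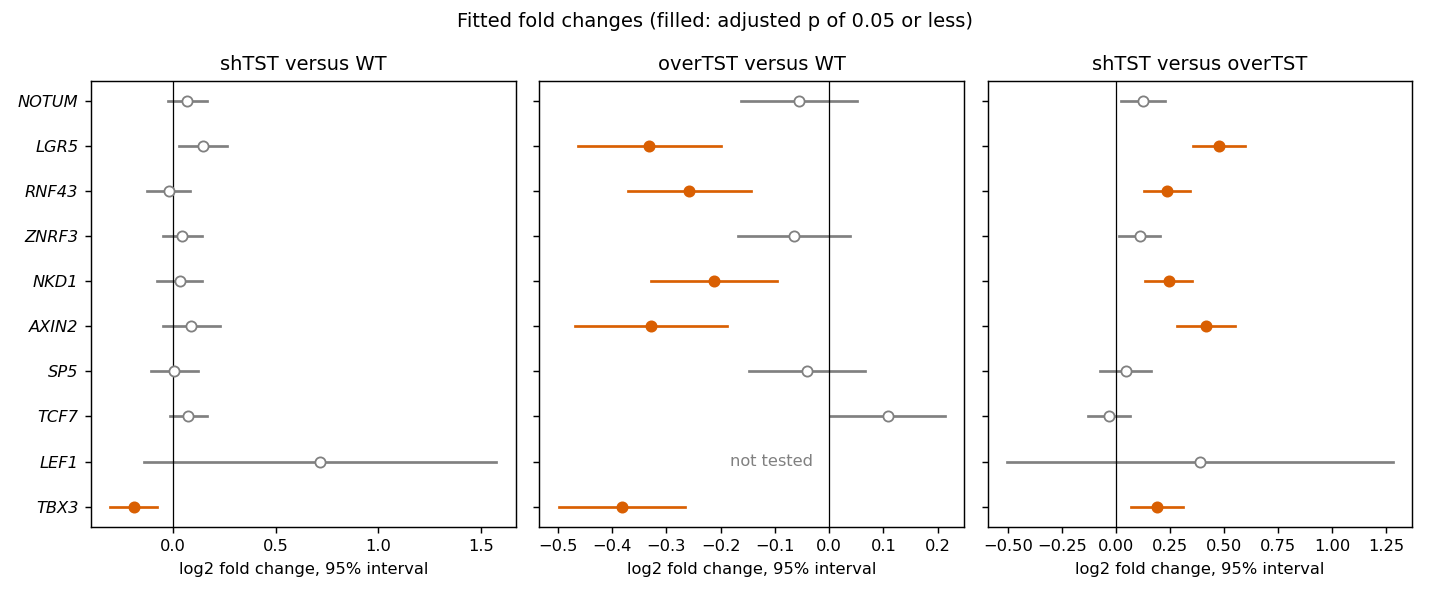
Fitted log2 fold change of each gene with its 95% interval in the 3 comparisons, each panel with its own scale. Filled points passed at an adjusted p of 0.05 or less, which were TBX3 in shTST versus WT and AXIN2, LGR5, NKD1, RNF43 and TBX3 in the other comparisons, and LEF1 was not tested in overTST versus WT.

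Fold changes of overTST followed exonic length across all genes, with a Spearman correlation across genes of -0.404 before and -0.0060 after a lowess correction of each library (genes are not independent replicates). With shTST the correlation was -0.090. After the correction AXIN2 (-0.28, adjusted p = 0.00172), LGR5 (-0.29, adjusted p = 0.00084), RNF43 (-0.16, adjusted p = 0.0164) and TBX3 (-0.32, adjusted p = 8.3e-05) were still lower with overTST (edgeR). The values of the shortest and the longest genes moved most. SP5, the shortest at 2060 bases, was called lower (-0.18, adjusted p = 0.00673, edgeR), and TCF7, with 10063 bases, was called higher (0.26, adjusted p = 0.00034, edgeR). The calls then were 5 lower and 1 higher of 9, against 14.3% lower and 14.2% higher of all genes. The cause of the trend with length was not tested.

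**Figure D4:**
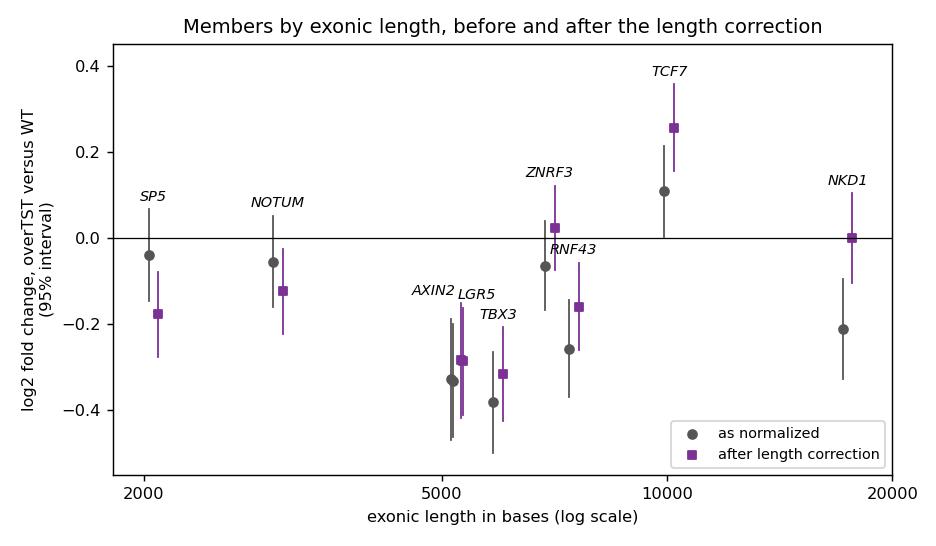
Log2 fold change of overTST versus WT with its 95% interval for the 9 genes tested, against exonic length on a log scale, as normalized (circles) and after the length correction (squares). AXIN2, LGR5, TBX3 and RNF43 stayed below 0, NKD1 moved from -0.21 to -0.0013, and TCF7 moved from 0.11 to 0.26.

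The 2 lines were compared directly because a gene that passes in one and not in the other is not thereby shown to differ. In a fit of all 12 libraries, 5 of the 10 genes were higher in shTST than in overTST and none was lower, against 33.0% of 14883 genes called (16.9% higher and 16.1% lower). LGR5 differed most, with a log2 fold change of 0.48 (SE 0.059, 95% interval 0.36 to 0.60, adjusted p = 2.4e-06, edgeR). AXIN2 followed at 0.42 (SE 0.066, 95% interval 0.28 to 0.55, adjusted p = 4e-05, edgeR). For both genes every shTST library lay above every overTST library.

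NKD1 (0.24, adjusted p = 0.00091) and RNF43 (0.24, adjusted p = 0.00105) were also higher in shTST without overlap (edgeR), with NKD1 at 526 to 569.6 CPM and RNF43 at 80.2 to 90.1 CPM there. The call of NKD1 was again lost after the length correction (0.059, adjusted p = 0.396, edgeR). TBX3, which was lower than WT in both lines, was higher in shTST than in overTST by 0.19 (SE 0.058, adjusted p = 0.0143, edgeR), with overlapping ranges. This call was lost without shTST replicate 2, shTST replicate 4 or overTST replicate 4 (0.15 to 0.16, adjusted p = 0.0586 to 0.0693, edgeR) and after the length correction (0.13, adjusted p = 0.0691, edgeR). NOTUM was just outside the threshold (0.12, SE 0.049, 95% interval 0.023 to 0.23, adjusted p = 0.0549, edgeR), and ZNRF3 had an adjusted p of 0.0657 (0.11, SE 0.046, edgeR). SP5 (0.046, 95% interval -0.072 to 0.16), TCF7 (-0.033, 95% interval -0.13 to 0.064) and LEF1 (0.39, 95% interval -0.50 to 1.28) did not pass.

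Over the 12 libraries some of the genes moved together, which is given as a description since all points share the 3 groups and the normalization. The Pearson correlation of log2 CPM was 0.97 between AXIN2 and NKD1, and 0.92 after the group means were removed. WT replicate 2 held the highest WT value of both genes, and the correlation without it is not given here. AXIN2 and LGR5 correlated at 0.87 over the 12 libraries and at 0.27 after the group means were removed. NOTUM and SP5 correlated at 0.74 and 0.81 in the same order, whereas AXIN2 and SP5 correlated at 0.38 and 0.40. The 5 genes most like AXIN2, among 11497 whose average log2 CPM was at least 1, were NKD1, CRACD (r = 0.960), ENSG00000260136 (r = 0.945), FAM168B (r = 0.945) and UPF1 (r = 0.942).

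The upstream parts of the pathway were described with lists of its other genes, whose counts stand beside all-gene shares of 18.2% lower and 15.7% higher with overTST and 9.40% lower and 6.69% higher with shTST. After the length correction the overTST shares were 14.3% and 14.2%. CTNNB1, the gene of beta-catenin itself, stood at 541, 515, 516 and 508 CPM in WT, at 436, 472, 460.0 and 471 CPM in shTST, and at 435, 413, 367 and 331 CPM in overTST. It was below every WT library in every library of both lines. The log2 fold change was -0.18 with shTST (SE 0.043, adjusted p = 0.0075, edgeR) and -0.43 with overTST (SE 0.063, adjusted p = 1.7e-05, edgeR), and after the length correction it was -0.16 (adjusted p = 0.00912, edgeR) and -0.35 (adjusted p = 0.0001, edgeR). The protein and its activated form were not measured.

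Ligands were scarce. Of 19 Wnt ligand genes 4 passed the filter on low counts in each comparison with WT and none was called by edgeR, DESeq2 or limma-voom, with 0 at an unadjusted p under 0.05, and WNT3, the highest of them per length, stood at 4.76 TPM in WT. None of the 4 R-spondin genes, whose products are the ligands of LGR5, passed the filter, and 3 of them had no reads in any group.

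Of 14 Wnt receptor genes tested, 8 were lower and 1 (FZD4) higher with overTST, and 3 were lower with shTST (LRP5, ROR1 and FZD9), against 18.2%, 15.7% and 9.40% of all genes. Their median log2 fold changes were -0.21 and -0.070, and after the length correction the overTST calls were 5 lower and 1 higher with a median of -0.19. FZD9 lost its call without any of 6 single libraries (WT replicates 2 and 4 and each shTST library). ROR1, a receptor of non-canonical Wnt ligands, fell with overTST by 1.24 (SE 0.19, adjusted p = 2.6e-05, edgeR) and with shTST by 0.58 (SE 0.14, adjusted p = 0.00639, edgeR) on the log2 scale. FZD7, a Frizzled receptor, fell with overTST by 0.74 (SE 0.17, adjusted p = 0.0015, edgeR). LRP5, the co-receptor with the highest level per length on this list (168 TPM in WT), fell by 0.18 with overTST (adjusted p = 0.0106, edgeR) and by 0.31 with shTST (adjusted p = 0.00037, edgeR), and the overTST call was lost after the length correction (-0.11, adjusted p = 0.121, edgeR).

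Of 16 other genes of the destruction complex and Dishevelled, 10 were lower with overTST and 4 with shTST (CSNK1A1, DVL1, DVL3 and GSK3A), and none was higher, against 18.2% and 9.40% of all genes called lower. Their median log2 fold changes were -0.31 and -0.10, and after the length correction the overTST calls were 6 lower and 2 higher with a median of -0.18. With shTST, GSK3A lost its call in 14 of 18 alternatives (adjusted p of 0.0501 to 0.18), and DVL3 lost it without any of 4 single libraries (WT replicates 2 and 4, shTST replicates 1 and 2). CSNK1A1, the kinase that primes beta-catenin for degradation, stood at 79.4 to 85.7 CPM in WT, 61.2 to 68.1 CPM in shTST and 46.5 to 54.7 CPM in overTST. The 3 groups did not overlap. CSNK1A1 shares 2917 bases, 37.7% of its exonic length, with ENSG00000230551 on the same strand, and reads there cannot be told apart by gene. It fell by 0.70 with overTST (SE 0.059, adjusted p = 1.3e-08, edgeR), and after the length correction the log2 fold change was -0.60 (adjusted p = 3.9e-08, edgeR). APC2, a relative of the scaffold APC, fell by 0.54 (SE 0.15, adjusted p = 0.0056, edgeR), and this call was lost after the length correction (-0.36, adjusted p = 0.0613, edgeR). DVL1, the highest of this list per length, had a log2 fold change of 0.0045 with overTST (adjusted p = 0.957, edgeR) and fell by 0.19 with shTST (adjusted p = 0.00758, edgeR).

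Of 16 genes for beta-catenin and its nuclear cofactors, 6 were lower and 1 higher with overTST, and 1 was lower (CTNNB1) and 1 higher with shTST, against 18.2%, 15.7%, 9.40% and 6.69% of all genes. Their median log2 fold changes were -0.16 and -0.035, and after the length correction the overTST calls were 5 lower and 3 higher with a median of -0.043. TLE3, a Groucho corepressor that occupies TCF/LEF factors without beta-catenin, fell by 0.61 with overTST (SE 0.091, adjusted p = 1.9e-05, edgeR), while its relative TLE4 rose by 0.55 (SE 0.19, adjusted p = 0.0245, edgeR). The call of TLE4 was lost without a filter and without WT replicate 2 or 3 or overTST replicate 2 or 4 (0.50 to 0.53, adjusted p of 0.0513 to 0.0664, edgeR). PYGO1, a coactivator of beta-catenin covered by only 12 to 44 reads per library, rose by 0.89 with shTST (SE 0.23, adjusted p = 0.0101, edgeR). DESeq2 gave PYGO1 no adjusted p.

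Of 7 Wnt antagonists tested, 2 were higher (DKK4 and DKK1) and 2 lower (NKD2 and KREMEN1) with overTST, and DKK1 was higher with shTST, against 15.7%, 18.2% and 6.69% of all genes. Their median log2 fold changes were 0.023 and -0.10, and after the length correction the overTST calls were again 2 and 2 while the median was -0.13. DKK1 and DKK4 code for secreted proteins that block LRP co-receptors. DKK1 stood at 206, 157, 211 and 195 CPM in WT, at 243, 233, 243 and 251 CPM in shTST, and at 288, 268, 255 and 274 CPM in overTST. It lay above every WT library in both lines, rising by 0.34 with shTST (SE 0.064, adjusted p = 0.00112, edgeR) and by 0.50 with overTST (SE 0.068, adjusted p = 6.2e-06, edgeR). DKK4 rose by 0.87 with overTST (SE 0.12, adjusted p = 6.8e-06, edgeR). NKD2, the relative of NKD1, fell by 0.58 with overTST (SE 0.22, adjusted p = 0.0437, edgeR) with overlapping ranges, and lost its call in 8 of 18 alternatives, with a log2 fold change of -0.34 without WT replicate 2 (adjusted p = 0.263, edgeR).

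Of 9 other beta-catenin target genes tested, 5 were lower (MYC, ENC1, PROX1, TNFRSF19 and BAMBI) and 2 higher (FOXQ1 and BMP4) with overTST, and 1 was lower (MYC) and 2 higher (FOXQ1 and TNFRSF19) with shTST, against 18.2%, 15.7%, 9.40% and 6.69% of all genes. Their median log2 fold changes were -0.25 and 0.038, and after the length correction the overTST counts were 5 and 2 with a median of -0.17. With overTST, BAMBI lost its call without WT replicate 2, overTST replicate 3 or overTST replicate 4 (adjusted p of 0.0565 to 0.127, edgeR), and with shTST, MYC lost its call without shTST replicate 2 (adjusted p = 0.0543, edgeR). FOXQ1, a forkhead factor and the highest of them per length (365 TPM in WT), rose by 0.30 with overTST (SE 0.053, adjusted p = 0.0001, edgeR) and by 0.17 with shTST (SE 0.050, adjusted p = 0.0218, edgeR), the latter lost without WT replicate 4 or shTST replicate 3. Of 10 pericentral liver genes tested, 1 was lower with overTST (SLC13A3), against 18.2% of all genes, and none was called with shTST. With shTST 4 of the 10 had p under 0.05 without adjustment (edgeR). The share of all genes under that p is not given here, and 16.1% of all genes passed even after adjustment. CYP27A1, the highest of the pericentral genes per length, had log2 fold changes of 0.056 with overTST (adjusted p = 0.373, edgeR) and 0.030 with shTST (adjusted p = 0.66, edgeR). The median log2 fold changes of this list were 0.035 and 0.13. After the length correction the overTST median was -0.017 and GLUL, the glutamine synthetase of pericentral hepatocytes, was called higher (0.22, adjusted p = 0.00123, edgeR). With shTST, RGN was called higher in 7 alternatives (0.15 to 0.19, adjusted p of 0.025 to 0.0491), among them DESeq2 and limma-voom, and SLC1A2, CYP7A1, RHBG and SLC13A3 were called higher in 1 or 2 alternatives each. FZD4, FZD9, DVL3, GSK3A, KREMEN1, BMP4, MYC, ENC1, PROX1, TNFRSF19, BAMBI, SLC13A3, GLUL, RGN, SLC1A2, CYP7A1 and RHBG are named here as the genes behind small counts and were chosen after their values were seen.

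In the count files (GRCh38) the exons of SP5 (chr2:170715351-170718078, + strand), NOTUM (chr17:81952507-81961840, - strand), TBX3 (chr12:114670254-114684164, - strand) and ZNRF3 (chr22:28883592-29057487, + strand) share no base with another gene. AXIN2 (chr17:65528563-65561647, - strand) shares 1316 bases, 25.2% of its exonic length, with ENSG00000266076 on the same strand, which had 0 to 3 reads per library. RNF43 (chr17:58352500-58417595, - strand) shares 1521 bases (20.3%) with TSPOAP1-AS1 on the other strand, which had 4 to 25 reads, and 143 bases (1.91%) with SUPT4H1 on the same strand, which had 3709 to 6370 reads. The shared parts of LEF1 (chr4:108047545-108168956, - strand), LGR5 (chr12:71439770-71586310, + strand), TCF7 (chr5:134114711-134151865, + strand) and NKD1 (chr16:50548330-50649249, + strand) were 5.20%, 3.96%, 2.09% and 0.385% of exonic length. The partner of TCF7, SKP1 on the other strand, had 1561 to 3326 reads per library, and those of the other 3 genes had at most 25. Reads in parts shared on the same strand cannot be told apart by gene. For parts shared on opposite strands this depends on the strand setting of the counts, which is not given in the sources used here.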

How the data were processed

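RNA of HepG2 cells was sequenced in 12 libraries, 4 each of WT, shTST and overTST, at 22911380 to 45120508 counts per library, and intervals of fitted values cover the spread between libraries. Per the labels, the authors trimmed reads with Trimmomatic 0.36, aligned them to GRCh38 with STAR 2.5.2b and deposited whole-number counts per Ensembl gene from featureCounts (Subread 1.5.2), without normalization. The annotation release and the strand setting are not given in the sources used here. Sample titles gave the groups and replicate numbers, and no other columns of values were used.

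From these counts, each line was compared with WT on its own 8 libraries with edgeR 4.0.16 (filterByExpr, TMM, quasi-likelihood test, Benjamini-Hochberg adjustment over all genes tested, threshold 0.05) in R 4.3.3. The 2 lines were compared in a fit of all 12 libraries. SE was obtained by dividing each log2 fold change by the root of its F statistic, and a prior count of 2 was set for log2 values. TPM used the exonic lengths in the files. Gene symbols matched 56410 of 57500 identifiers. Alternatives were DESeq2 1.42.0, limma 3.58.1 with voom, RLE and upper-quartile scaling, 2 other filters, a lowess length correction (span 0.3), the replicate number as a block, other library sets and leaving out each library. Scripts were tested on simulated counts. Figures were drawn with matplotlib in Python.

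Besides the 10 genes, the text names TST, CTNNB1, the gene of each list with the highest level per length in WT, the 5 genes most like AXIN2, and up to 3 genes per list and comparison with WT by smallest p, among those with an adjusted p of at most 0.05, a log2 fold change of at least 0.5 either way and an average log2 CPM of at least 0. The genes and lists were chosen with earlier results of these data known.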

Additional observations from a re-analysis of the deposited data

Results flagged for a closer look

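Chance alone marks about 1 in 20 groups of 4 by the gap test used here (Dixon's ratio of the gap of an extreme library to the group's range), and 33 groups were checked. AXIN2 in overTST replicate 2 stood apart at 57.7 CPM, with the other 3 libraries at 55.3 to 55.5 CPM and a ratio of 0.908. TST in shTST replicate 3 stood apart at 36.6 CPM, with the other 3 libraries at 33.0 to 33.6 CPM and a ratio of 0.839.

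The effects of the 2 lines against WT differed, by the direct comparison of shTST with overTST, for 5 of the 10 genes. Of all 14883 genes tested, 33.0% were called there (16.9% higher and 16.1% lower). The log2 difference was 0.42 for AXIN2, 0.48 for LGR5, 0.24 for NKD1, 0.24 for RNF43 and 0.19 for TBX3, higher in shTST in each case. The call of NKD1 was lost after the length correction, and that of TBX3 was lost after it and without any of 3 single libraries.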

How the results depend on the processing

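The calls of AXIN2, LGR5, RNF43 and TBX3 as lower with overTST held in all 18 alternatives, and that of NKD1 held in 16 of 18 and was lost with the length correction, alone (-0.0013) and with the replicate block (-0.0016). The count of genes called with overTST was 5 to 7 in every alternative, against 15.4% to 38.6% of all genes. With shTST the count rose from 1 to 2 under upper-quartile scaling, the length correction, the replicate block and the block with the length correction. LGR5 was the added gene in each, and the shares of all genes called were 16.7%, 17.9%, 20.4% and 21.4% in the same order. With single libraries left out the count ranged from 0 to 2, against 10.2% to 15.7% of all genes. NOTUM, just outside the threshold between shTST and overTST, passed in 10 of 22 alternatives. Between these lines the count was 4 to 6, against 13.3% to 38.5% of all genes.

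Some values near 0 changed sign without passing. SP5 with shTST was -0.0055 without a filter, -0.0100 with the length correction and -0.013 with the block added, and between -0.030 and 0.061 with single libraries left out. RNF43 with shTST was between -0.050 and 0.012 in the latter, including 0.0085 without shTST replicate 1. ZNRF3 with overTST was 0.023 with the length correction, with or without the block.

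Libraries with the same replicate number were only weakly alike, and whether they were paired was not tested. Same-numbered libraries of 2 groups correlated at -0.053 to 0.080 in their deviations from the group means, and with shTST and WT 6 of 8 libraries correlated best with their own number, with overTST and WT 3 of 8. With the replicate block the count of genes called was 2 with shTST, 5 with overTST and 6 between the lines. The shares of all genes called were 20.4%, 35.8% and 35.2% with the block, and 16.1%, 33.9% and 33.0% without it.

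By CPM in place of values per length, NKD1 moved from the third to the first place in WT. AXIN2, NOTUM, RNF43, SP5, TBX3 and TCF7 also changed place. ZNRF3 and LGR5 kept theirs, and LEF1 kept the last. Depth limited LEF1, at 3 to 19 reads per library.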
